A study of Mus musculus with 12 samples.

Results

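Gene expression was compared between HMGN1-OE and wild-type mouse myeloid progenitors at 0 h, while both were still held in the undifferentiated state by estradiol (E2). The comparison took 4 of the 12 RNA-seq libraries, 2 of each genotype, and the 11516 of 23309 listed genes that reached 1 FPKM in 2 or more of the 12 libraries. Both genotypes were bone marrow cultures of C57BL/6 background mice, enriched for CD117+ cells, transduced with a retrovirus for ER-HoxB8, and grown in IL-3 and E2. HMGN1-OE mice carried a transgene of human HMGN1, and the controls came from wild-type littermates. Each culture is a retrovirally immortalized population, so a clone that grew out in 1 culture and the genotype cannot be told apart with 2 libraries a group. The other 8 libraries were taken at 36 and 96 h after E2 was withdrawn. RNA came from a fixed number of cells with ERCC synthetic RNAs added, and the deposited values are FPKM (reads scaled to gene length and library size) after normalization to the ERCC RNAs.

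HMGN1 is a small protein that binds nucleosomes and is associated with open, accessible chromatin. The fusion of the estrogen receptor with HoxB8 blocks the maturation of granulocyte-monocyte progenitors for as long as E2 is present. Such progenitors already make the enzymes of primary (azurophilic) granules, whereas the proteins of secondary and tertiary granules, chemoattractant receptors and most inflammatory genes appear as the cells mature.

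Progenitor markers were present in all 4 libraries. All 11 markers of the granulocyte-monocyte progenitor, among them Kit, Cd34, Mpo, Elane and Myb, had at least 1 FPKM in each, and their summed level was 8439 and 5833 FPKM in HMGN1-OE cells versus 8403 and 16848 FPKM in wild-type cells. The CD3 chains Cd3e, Cd3d and Cd3g, the collagens Col1a1, Col1a2 and Col3a1, the erythroid regulators Gata1 and Klf1 and the B cell factor Pax5 were under 1 FPKM in all 4. Other markers of these blood lineages were over 1 FPKM in every library. They were 3 of the 6 B cell markers (Cd79b, Ebf1 and Vpreb1), 1 of the 7 erythroid markers (the globin Hbb-b1) and 1 of the 6 T and NK cell markers (Lck). Summed levels were 55.2 and 46.2 FPKM against 36.2 and 38.7 FPKM for the B cell markers, 41.0 and 7.38 FPKM against 10.9 and 4.45 FPKM for the erythroid ones, and 6.08 and 2.22 FPKM against 2.97 and 5.32 FPKM for those of T and NK cells. Of the 10 neutrophil markers, 7 were over 1 FPKM in every library, and their sum was 1874 and 1172 FPKM against 2950 and 1174 FPKM, with S100a8 between 451 and 1411 FPKM. The part of these cells in the results was not tested. Of the 7 mast cell and basophil markers, 6 were over 1 FPKM in every library, and their sum was 1082 and 643 FPKM in HMGN1-OE cells versus 459 and 768 FPKM in wild-type cells. In bulk RNA a smaller number of cells of a type and less RNA per cell cannot be told apart. Hoxb8, part of the fusion that holds the cells immature, had 90.7 and 86.7 FPKM in HMGN1-OE cells versus 46.2 and 77.0 FPKM in wild-type cells. The estrogen receptor gene Esr1 had 8.89 and 6.85 FPKM against 4.68 and 8.22 FPKM. Reads of the fusion and of the cells' own genes were not separated, and the part of the fusion's level in the results was not tested.

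The level of a whole library differed more within a genotype than between genotypes. The median of log2(FPKM + 1) was 4.48 and 3.96 in the first and second HMGN1-OE library, in the order of the deposited columns, and 3.91 and 4.78 in the wild-type libraries. The median log2 fold change (HMGN1-OE minus wild-type) over all tested genes was -0.12 as deposited. It was -0.55 without the first and 0.30 without the second wild-type library, and -0.37 and 0.13 without the first and second HMGN1-OE library. The tests and gene lists were therefore run on 2 scales, as deposited and with each library centred on its own median, which brought the median over all genes to 0.01. Differences were tested with limma, and genes below 0.05 after adjustment over all 11516 were called. As deposited limma set the variance of each gene from its expression level alone, so the printed standard errors do not hold the spread between the 2 libraries of that gene. The libraries of a gene are called separated where both HMGN1-OE values lay on the same side of both wild-type values. An exact permutation test of 2 against 2 libraries cannot go below p = 0.333.

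As deposited, 157 genes were called (1.36% of those tested), of which 92 rose (0.799%) and 65 fell (0.564%) in HMGN1-OE cells. With centred libraries 12 were called (0.104%), of which 5 rose (0.0434%) and 7 fell (0.0608%). The libraries were separated upward in 3.26% and downward in 4.67% of all genes as deposited (7.93% in all), and in 19.8% and 17.9% with centring (37.8% in all). Of the 157 genes called as deposited, 39 were small RNA genes (miRNA, snoRNA and snRNA genes), although these made up 0.808% of the genes tested. The other 118 comprised 110 protein-coding genes, 6 long noncoding RNA genes and 2 unmatched symbols. Of these 118, 73 were higher and 45 lower, and the libraries were separated in 67 and 35 of them.

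**Figure D1:**
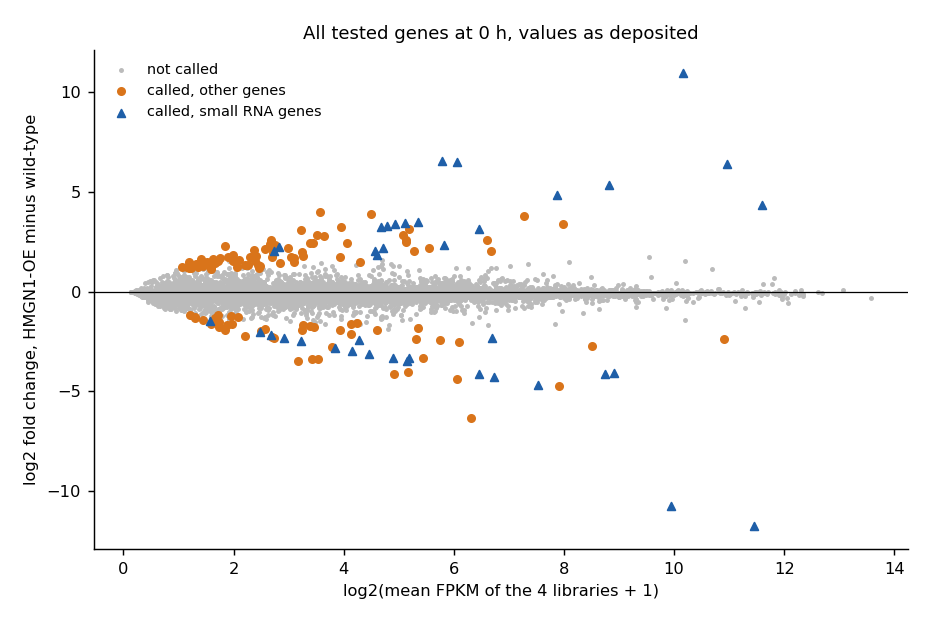
Log2 fold change (HMGN1-OE minus wild-type, as deposited) of the 11516 tested genes at 0 h against log2 of the mean FPKM of the 4 libraries plus 1. Orange points are the 118 called genes that are not small RNA genes, blue triangles the 39 called small RNA genes, which hold the most extreme values in both directions, and grey points the genes that were not called.

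The most extreme differences were at miRNA genes. Mir704 had 1820 and 2751 FPKM in HMGN1-OE cells versus 0.0976 and 0.127 FPKM in wild-type cells, near the 0.1 FPKM at which genes without signal are listed. Mir1892 had 0.733 and 0.111 FPKM in HMGN1-OE cells versus 2845 and 8299 FPKM in wild-type cells. Mir677 had 0.111 and 0.0945 FPKM against 2505 and 1449.5 FPKM, and Mir686 had 215 and 47.7 FPKM against 0.102 and 0.151 FPKM. These 4 genes are annotated inside protein-coding genes on the same strand, and the libraries were made from polyA RNA, so that reads counted there may belong to the host transcript. The hosts, which were not called, were Pdia4 for Mir704, Sptssa for Mir1892, Atp5b for Mir677 and Psmb5 for Mir686, and their log2 fold changes as deposited were -0.17, 0.03, -0.07 and -0.12. Mir378b, inside Msi2 on the other strand, had 142 and 75.3 FPKM in HMGN1-OE cells versus 0.0939 and 0.111 FPKM in wild-type cells. The libraries do not keep strand, so reads counted at Mir378b may belong to Msi2 as well. Msi2 had 82.0 and 46.1 FPKM against 39.1 and 38.8 FPKM, separated and higher in HMGN1-OE cells but not called (log2 difference 0.65 ± 0.51 SE, limma unadjusted p = 0.204, and adjusted p = 0.906 with centring). Mir378b was called as deposited and with centred libraries (log2 fold changes 6.57 and 6.70, limma adjusted p = 1.71e-74 and 0.00036), and the other 4 were not called with centring. An FPKM of a gene of 77 to 109 bases turns few reads into a large value, and the level of the mature miRNA was not measured. Mir26b, Mir130b, Mir29c and Mir22 were between 114 and 421 FPKM in the first wild-type library and under 1 FPKM in the other 3, so that their call rests on that library. The mature miRNAs of the 5 genes above are shown so that they can be identified, with the seed (bases 2 to 8) in capitals. They hold 6 different seeds.
mmu-miR-704: aGACAUGUgcucugcuccuag
mmu-miR-378b: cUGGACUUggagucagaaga
mmu-miR-686: aUUGCUUCccagacggugaaga
mmu-miR-1892: aUUUGGGGacgggagggaggau
mmu-miR-677-5p: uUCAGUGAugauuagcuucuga
mmu-miR-677-3p: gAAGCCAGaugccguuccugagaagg

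Besides Mir378b, 9 genes were called on both scales (4 rises and 5 falls), and their libraries were separated. C1qtnf6, which encodes a secreted protein of the C1q and TNF related family, had 54.0 and 28.5 FPKM in HMGN1-OE cells versus 1.26 and 2.23 FPKM in wild-type cells. Its log2 fold change was 3.90 as deposited (standard error 0.45, limma adjusted p = 1.32e-15) and 4.03 with centring (adjusted p = 0.00583). Gstm7, a glutathione S-transferase of the mu class, had 32.4 and 10.4 FPKM in HMGN1-OE cells versus 0.153 and 0.324 FPKM in wild-type cells. It rose by 3.98 (standard error 0.36, limma adjusted p = 1.45e-25) and by 4.11 with centring (adjusted p = 0.0465). Wild-type levels of Gstm7 were near the value of genes without signal, so this difference was between detection and near absence. Gstm genes are close copies of each other, and how reads were divided among them is uncertain.

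Laptm4b, a membrane protein of lysosomes and endosomes, had 74.8 and 45.0 FPKM in HMGN1-OE cells versus 8.05 and 22.3 FPKM in wild-type cells (log2 difference 2.02 ± 0.49 SE, limma adjusted p = 0.0033, and 0.00731 with centring). Il11ra1, the receptor chain that binds IL-11, had 18.4 and 9.83 FPKM against 2.07 and 3.48 FPKM (log2 difference 1.97 ± 0.43 SE, limma adjusted p = 0.0007, and 0.0465 with centring). The near-identical copy Gm13305 was also called, with 7.05 and 3.87 FPKM against 0.805 and 1.49 FPKM, and reads of the 2 genes cannot be told apart with certainty. All 4 rising genes had higher values in both HMGN1-OE libraries than in either wild-type library.

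Among the genes that fell on both scales, BC064078 had the largest difference, with 0.693 and 0.528 FPKM in HMGN1-OE cells versus 68.6 and 243 FPKM in wild-type cells. It fell by 6.34 as deposited (standard error 0.48, limma adjusted p = 2.97e-37) and by 6.21 with centring (adjusted p = 0.00055). Gpx8, a glutathione peroxidase family member of the endoplasmic reticulum, had 2.62 and 0.809 FPKM in HMGN1-OE cells versus 20.8 and 91.7 FPKM in wild-type cells (log2 difference -4.13 ± 0.43 SE, limma adjusted p = 8.03e-19, and 0.00884 with centring). Acpp, an acid phosphatase, had 4.66 and 5.87 FPKM against 19.9 and 35.6 FPKM. Bzrap1, a protein that binds the benzodiazepine receptor of mitochondria, had 10.1 and 12.4 FPKM against 44.6 and 88.2 FPKM. Tinagl1, a secreted matrix protein, had 3.34 and 2.34 FPKM against 11.2 and 16.7 FPKM. The log2 fold changes of Acpp, Bzrap1 and Tinagl1 were -2.15, -2.39 and -1.95 (limma adjusted p = 0.00251, 0.000368 and 0.00302), and all 3 had an adjusted p of 0.0465 with centring. Over the other settings with all libraries, the adjusted p of each of these 9 genes ranged from below the threshold to between 0.313 for BC064078 and 1. The highest values came from a linear model without moderation or from dropping the filter. The calls that follow, with single libraries left out, were made as deposited and do not hold for the centred scale. C1qtnf6, Gstm7, BC064078 and Gpx8 were called without any single library, whereas the other 5 lost their call without the first HMGN1-OE library (limma adjusted p between 0.0507 for Tinagl1 and 0.464 for Laptm4b). Acpp, Bzrap1 and Tinagl1 also lost it without the second wild-type library (0.171, 0.0782 and 0.0895), Laptm4b without the first wild-type library (0.251), and Tinagl1 without the second HMGN1-OE library (0.193).

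**Figure D2:**
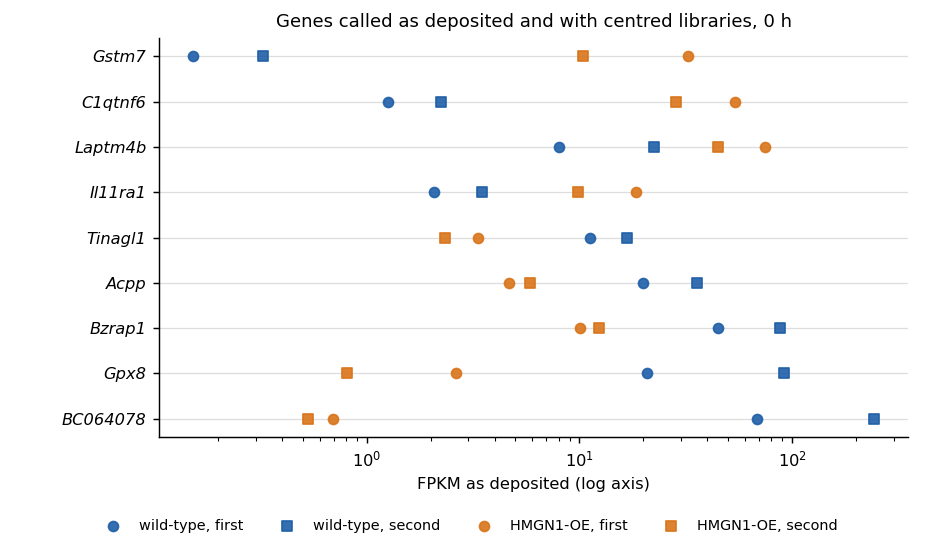
FPKM as deposited (log axis) of the 9 genes, small RNA genes aside, that were called both as deposited and with centred libraries at 0 h. Each point is 1 library, orange for HMGN1-OE and blue for wild-type, circles for the first and squares for the second column of a group. For each gene, both orange points lie on the same side of both blue points, with the first 4 genes higher and the other 5 lower in HMGN1-OE libraries.

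Apart from Mir378b and these 9 genes, none of the genes called as deposited was called with centring. Among them were other large rises. S100g, the calcium-binding protein calbindin-D9k, had 416 and 499 FPKM in HMGN1-OE cells versus 71.7 and 25.6 FPKM in wild-type cells (log2 difference 3.38 ± 0.50 SE, limma adjusted p = 2.86e-09). Crip1, a small LIM domain protein, had 60.8 and 61.8 FPKM against 1.87 and 16.6 FPKM (log2 difference 3.13 ± 0.48 SE, limma adjusted p = 1.12e-08). Slc35d3, of a family of nucleotide sugar transporters, had 27.6 and 13.7 FPKM against 3.60 and 0.964 FPKM. Mira, a noncoding transcript of the Hoxa region, had 42.3 and 11.1 FPKM against 4.17 and 0.160 FPKM. These 4 genes were separated, and each was called without any single library. With centring, the limma adjusted p was 0.715 for S100g, 0.455 for Crip1, 0.425 for Slc35d3 and 0.686 for Mira.

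Several other rises rested largely on 1 library. Hormad2, a protein of meiotic chromosome axes, had 29.9 and 2.81 FPKM in HMGN1-OE cells versus 0.366 and 0.191 FPKM in wild-type cells. Tdrkh, a Tudor domain protein of the piRNA pathway, had 17.5 and 3.05 FPKM against 0.584 and 0.293 FPKM. In both, the first HMGN1-OE library was several times the second. Without it, the limma adjusted p was 0.0497 for Hormad2 and 0.0828 for Tdrkh, and with centring it was 0.655 and 0.471. Gpr128, an adhesion receptor coupled to G proteins, had 67.6 and 40.0 FPKM against 27.2 and 2.15 FPKM, and the limma adjusted p was 0.901 without the second wild-type library and 0.0529 without the first HMGN1-OE library (0.971 with centring). Rnu11, a spliceosomal small RNA, had 86.5 and 44.9 FPKM against 26.9 and 0.132 FPKM, and its limma adjusted p without the second wild-type library was 0.901 too (0.999 with centring).

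Ly6c2 and Ly6c1 had the largest falls among called protein-coding genes. These surface proteins mark monocytes and their progenitors. Ly6c2 had 10.9 and 8.43 FPKM in HMGN1-OE cells versus 92.3 and 846 FPKM in wild-type cells (log2 difference -4.73 ± 0.59 SE, limma adjusted p = 5.75e-13). Ly6c1 had 3.22 and 2.67 FPKM against 27.3 and 229.5 FPKM (log2 difference -4.36 ± 0.56 SE, limma adjusted p = 2.11e-12). The gap in FPKM between the wild-type libraries was wider than that from the lower of them to HMGN1-OE, and both genes were called without any single library but not with centring (adjusted p = 0.288 and 0.352). The 2 genes are close copies, so their values are not independent. Scin, an actin-severing protein, had 11.2 and 3.83 FPKM in HMGN1-OE cells versus 81.9 and 72.8 FPKM in wild-type cells (log2 difference -3.35 ± 0.48 SE, limma adjusted p = 6.85e-10, and 0.144 with centring). Its wild-type libraries were close to each other and well above both HMGN1-OE libraries.

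Primary granule genes had the lowest median of the lists with all 4 libraries. Without the second wild-type library, germ cell genes had a lower one (-0.92 against -0.19 as deposited, -1.22 against -0.49 with centring), and without the first, monocyte and macrophage genes did (-1.10 against -0.96, and -0.54 against -0.39). Of the 15 primary granule genes, all of them tested, 14 had log2 fold changes below 0. By the test 2 fell (Mpo and Elane), where 0.564% of all genes were called lower, and none rose. As deposited, 9 of the 15 were separated downward (60%, against 4.67% of all genes) and none upward. Of the 11 granulocyte-monocyte progenitor markers, 4 of which are on the list too, 10 were below 0 on both scales, and their part in the difference was not tested. The list's median log2 fold change was -0.55 as deposited and -0.42 with centring, where the medians of all genes were -0.12 and 0.01. With centred libraries, 11 of the 15 were separated downward (73.3%, against 17.9% of all genes) and none upward. The median was below 0 whichever HMGN1-OE library was set against whichever centred wild-type library (4 comparisons), between -0.75 and -0.28. Between 12 and 15 of the 15 genes were below 0 without any 1 library on the centred scale. As deposited, the number was 9 without the second wild-type library.

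Mpo, the myeloperoxidase that makes hypochlorous acid in the phagosome, had 540 and 642 FPKM in HMGN1-OE cells versus 2107 and 4406 FPKM in wild-type cells. It fell by 2.37 (standard error 0.62, limma adjusted p = 0.0109), and the adjusted p was 0.618 with centring. It was 0.831 without the second wild-type, 0.382 without the first HMGN1-OE, 0.112 without the second HMGN1-OE and 0.0152 without the first wild-type library. Elane, neutrophil elastase, had 106 and 74.0 FPKM in HMGN1-OE cells versus 409 and 867 FPKM in wild-type cells. It fell by 2.74 (standard error 0.60, limma adjusted p = 0.00066), and the adjusted p was 0.431 with centring. It was 0.251 without the second wild-type library, 0.0948 without the second HMGN1-OE library and at most 0.0187 without either of the others. For both genes the lower wild-type library was more than 3 times the higher HMGN1-OE library. Prtn3, proteinase 3, had 708 and 467 FPKM against 978 and 2516 FPKM, and Fcnb, a ficolin of the lectin complement pathway, had 4.98 and 2.94 FPKM against 16.2 and 12.7 FPKM, and neither was called. Ctsg, cathepsin G, had 5683 and 3711 FPKM against 3862 and 7413 FPKM, and Ctsc, the cathepsin that activates the granule proteases, had 217 and 118 FPKM against 119 and 214 FPKM, so that the genotypes overlapped in both.

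**Figure D3:**
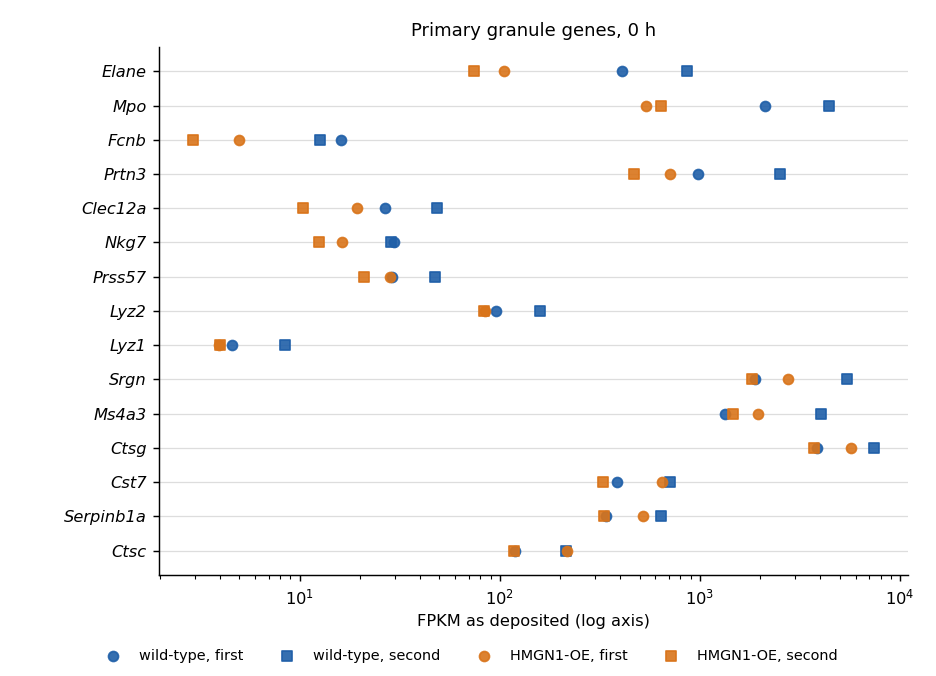
FPKM as deposited (log axis) of the 15 primary granule genes at 0 h, ordered from the largest fall at the top. Each point is 1 library, orange for HMGN1-OE and blue for wild-type, circles for the first and squares for the second column. The genotypes do not overlap in the upper 9 genes (60%, where 4.67% of all tested genes were separated downward) and overlap in the lower 6.

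The promoters of Mpo, Elane and Prtn3 are shown because these 3 enzymes had lower values in HMGN1-OE cells with separated libraries, although Prtn3 was not called, each as the 250 bases before the transcription start in GRCm38.p6 (RefSeq). RefSeq entries were found for 13 of the 15 genes. Capitals mark matches, on either strand, to GAGGAAGT, a sequence of the kind bound by the myeloid factor PU.1, and to CAACNG, of the kind bound by Myb. No overlap between matches occurs in these 3 sequences. GAGGAAGT is in 4 of the 13 genes (Mpo, Elane, Prtn3 and Ctsc), not in that of the protease Ctsg, and in 2.44% of all 32851 promoter windows of this length. CAACNG is in 7 of the 13 and in 29.3% of all windows, and TTNCNNAA, of the kind bound by C/EBP factors, is in 7 of the 13 and in 36.8% of all windows but in none of the 3 shown. Ctsc, which holds GAGGAAGT, had a log2 fold change of 0.01.
Mpo, chr11:87793534-87793783, plus strand: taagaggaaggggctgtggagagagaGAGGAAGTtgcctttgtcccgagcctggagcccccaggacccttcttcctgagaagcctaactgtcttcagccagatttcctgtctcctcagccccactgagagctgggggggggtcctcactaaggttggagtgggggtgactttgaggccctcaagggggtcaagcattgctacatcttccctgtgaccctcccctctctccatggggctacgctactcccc
Elane, chr10:79886062-79886311, plus strand: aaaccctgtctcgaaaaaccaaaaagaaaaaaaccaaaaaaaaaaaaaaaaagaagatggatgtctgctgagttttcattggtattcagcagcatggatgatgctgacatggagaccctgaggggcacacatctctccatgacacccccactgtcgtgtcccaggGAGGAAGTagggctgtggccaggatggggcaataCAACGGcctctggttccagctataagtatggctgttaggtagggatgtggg
Prtn3, chr10:79879417-79879666, plus strand: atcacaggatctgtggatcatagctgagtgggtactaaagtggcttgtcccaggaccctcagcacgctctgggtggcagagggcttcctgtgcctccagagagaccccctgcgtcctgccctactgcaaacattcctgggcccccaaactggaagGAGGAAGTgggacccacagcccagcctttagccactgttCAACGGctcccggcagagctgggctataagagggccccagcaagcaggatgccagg

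Of 30 tested secondary and tertiary granule genes, none was called, 5 were separated upward and 5 downward as deposited (16.7% each, against 3.26% and 4.67% of all genes), and the median was -0.09 (0.05 with centring). With centring, 2 were separated upward (6.67%) and 4 downward (13.3%), below the 19.8% and 17.9% of all genes. The centred median was 0.84 without the first and -0.47 without the second wild-type library. The protease inhibitor Stfa2 had 37.6 and 29.9 FPKM in HMGN1-OE cells versus 14.5 and 12.6 FPKM in wild-type cells, whereas Pglyrp1, a peptidoglycan-binding protein, had 73.2 and 33.2 FPKM against 109 and 131 FPKM. Of 20 monocyte and macrophage genes, only the 2 Ly6c genes were called, both lower, where 0.564% of all genes were. On either scale 15 were below 0, and the median was -0.39 (-0.26 with centring). Without the second wild-type library that median was 0.17 as deposited and -0.13 with centring. F13a1, the A subunit of coagulation factor XIII and a monocyte marker, had the highest log2 fold change of the list (1.27 ± 0.54 SE, limma adjusted p = 0.66) with 198 and 141 FPKM against 32.6 and 143 FPKM, so that the genotypes overlapped. The macrophage marker Emr1 (F4/80) had 119 and 37.7 FPKM against 47.6 and 55.4 FPKM. Myeloid transcription factors had a median of -0.22 over 27 genes (-0.09 with centring), none called. As deposited 4 were separated downward (14.8%, against 4.67% of all genes) and none upward. With centring 11 were separated downward (40.7%, against 17.9% of all genes) and 4 upward (14.8%, against 19.8%). The median was 0.23 as deposited without the second wild-type library and 0.03 with centring without the first. Cebpe, a regulator of late granulocyte genes, had 23.3 and 19.3 FPKM against 43.2 and 35.7 FPKM, and Irf8, a regulator of monocyte fate, had 4.08 and 2.73 FPKM against 2.72 and 15.2 FPKM. Chemoattractant receptors (16 tested) had a median of -0.33 (-0.19 with centring), with none called, but it was 0.04 as deposited without the second wild-type library and 0.02 with centring without the first HMGN1-OE library. Antigen presentation genes (21 tested) and dendritic cell genes (5 tested) had no called member, with medians of 0.04 and -0.01 as deposited and 0.17 and 0.12 with centring. Of the antigen presentation genes, 19 of 21 were above 0 with centring and 9 were separated upward (42.9%, against 19.8% of all genes), whereas as deposited 12 were above 0 and 1 was separated upward (4.76%, against 3.26%). Their centred median was between 0.11 and 0.21 in each comparison of 1 HMGN1-OE with 1 wild-type library.

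A pair of genes of the earliest B-lymphoid steps rose in HMGN1-OE cells as deposited, and neither was called with centring. Dntt, the terminal transferase that adds bases at antigen receptor joints, had 68.1 and 47.4 FPKM in HMGN1-OE cells versus 15.9 and 4.60 FPKM in wild-type cells (log2 difference 2.57 ± 0.42 SE, limma adjusted p = 1.38e-07, and 0.879 with centring). Vpreb1, a surrogate light chain of the pre-B cell receptor, had 11.92 and 11.97 FPKM against 1.52 and 2.15 FPKM (log2 difference 2.20 ± 0.35 SE, limma adjusted p = 1.11e-07, and 0.0655 with centring). Vpreb1 was called without any single library, and its adjusted p over the other settings with all libraries was at most 0.313. The close copy Vpreb2 had 8.76 and 9.20 FPKM against 1.62 and 2.36 FPKM, and reads of the pair may have been shared. Dntt had an adjusted p of 0.152 without the second wild-type library. Of the 9 tested B cell genes, Dntt and Vpreb1 rose and none fell, where 0.799% of all genes were called higher and 0.564% lower. Ebf1, the factor that sets up the B lineage program, had 28.2 and 22.5 FPKM against 18.9 and 28.7 FPKM, Igll1 had 259 and 209 FPKM against 63.9 and 253 FPKM, and the B lineage genes Pax5 and Ms4a1 were near 0.1 FPKM in all 4 libraries. T and NK cell genes had no called member among 4 tested.

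Prss34, a serine protease of mast cells and basophils, had 256 and 78.5 FPKM in HMGN1-OE cells versus 34.2 and 14.7 FPKM in wild-type cells (log2 difference 2.60 ± 0.56 SE, limma adjusted p = 0.000368, and 0.494 with centring). It was the 1 called gene of 19 tested mast cell and basophil genes, and the adjusted p was 0.758 without the first HMGN1-OE library and 0.23 without the second wild-type library. Of 11 tested eosinophil genes none was called. The eosinophil granule genes Epx and Prg2 had 4.72 and 4.33 against 1.64 and 0.409 FPKM for Epx and 19.8 and 12.1 against 9.88 and 2.54 FPKM for Prg2 (limma adjusted p = 0.0529 and 0.382). Hba-a1, an alpha globin with a close copy, had 5.41 and 1.30 FPKM against 1.14 and 0.254 FPKM and was the 1 gene of 9 erythroid genes that rose (limma adjusted p = 0.0192, 0.826 with centring, and 0.901 without the second wild-type or 0.855 without the first HMGN1-OE library). None of 12 megakaryocyte genes and none of 4 stromal and endothelial genes was called. Among 20 stem and progenitor genes, Procr, the endothelial protein C receptor found on stem cells, rose, with 4.45 and 2.10 FPKM against 0.162 and 1.26 FPKM (log2 difference 1.34 ± 0.34 SE, limma adjusted p = 0.00839, 0.806 with centring, and 0.855 without the first HMGN1-OE or 0.47 without the first wild-type library). Kit, the stem cell factor receptor that is the CD117 used for enrichment, had the lowest log2 fold change of the list (-1.38 ± 0.52 SE, limma adjusted p = 0.352, and 0.131 with centring), with 13.4 and 12.1 FPKM against 25.0 and 47.6 FPKM and separated libraries. The list as a whole had a median of -0.07 (0.07 with centring). Without the first wild-type library it was -0.30 (0.27 with centring), and without the second 0.23 (-0.07 with centring). Of the TALE homeobox cofactors, which bind DNA with Hox proteins, none of 8 was called, and Meis1 had 18.2 and 10.4 FPKM against 8.11 and 6.90 FPKM. None of the 18 HoxC and HoxD genes passed the filter on low values.

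Of 31 cytokine receptors, Il1r1, the signalling receptor of IL-1, rose, with 18.5 and 31.7 FPKM in HMGN1-OE cells versus 11.5 and 0.709 FPKM in wild-type cells (log2 difference 2.45 ± 0.42 SE, limma adjusted p = 7.29e-07, and 0.93 with centring). Its wild-type libraries differed more than 10-fold, and the adjusted p was 0.901 without the second of them. Of 43 interferon-stimulated genes, 2 rose and none fell, where 0.799% of all genes were called higher. Oas1a, an RNA-sensing synthetase, had 3.57 and 2.78 FPKM against 0.189 and 0.875 FPKM (limma adjusted p = 0.00449, 0.4 with centring, and 0.27 without the first HMGN1-OE or 0.117 without the first wild-type library), and Tgtp1, an interferon-induced GTPase, had 4.50 and 0.411 FPKM against 0.132 and 0.304 FPKM (limma adjusted p = 0.0154, 0.939 with centring, and between 0.136 and 0.855 without any of the libraries but the second HMGN1-OE). The median of the interferon list was -0.09 (0.04 with centring). NF-kB and inflammatory genes (30 tested) had no called member and a median of -0.25 (-0.11 with centring). As deposited, 5 were separated downward (16.7%, against 4.67% of all genes) and none upward. With centring, 9 of the 30 were separated downward (30%) and 2 upward (6.67%), where 17.9% and 19.8% of all genes were. Without the second wild-type library the median as deposited was 0.11 and 23 of the 30 were above 0, whereas with centring it was -0.19. Ebi3, a cytokine subunit, had 10.5 and 4.61 FPKM against 14.5 and 17.8 FPKM.

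Among growth factor and adhesion pathways, Ltbp1, which stores latent TGF-beta in the matrix, had 7.22 and 6.36 FPKM in HMGN1-OE cells versus 2.32 and 1.15 FPKM in wild-type cells (limma adjusted p = 0.00112, and 0.165 without the second wild-type or 0.0747 without the first HMGN1-OE library) and was the 1 called gene of 23 in the TGF-beta and BMP list. Itga8, an integrin alpha chain, had 22.1 and 21.8 FPKM against 9.39 and 3.57 FPKM (limma adjusted p = 0.000875, and 0.901 without the second wild-type library) and was the 1 called gene of 25 integrins and adhesion molecules. Both genes were separated and were not called with centring (adjusted p = 0.712 and 0.927). Of 36 immediate early and ERK feedback genes, 11 Wnt, 15 Notch, and 17 collagen and matrix genes, none was called. The ERK-induced factors Etv5 and Etv4 had 9.16 and 3.83 against 2.62 and 2.74 FPKM, and 4.48 and 2.27 against 1.54 and 1.59 FPKM, whereas Jun had 3.56 and 1.46 against 2.75 and 14.6 FPKM.

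Cholesterol synthesis genes (24 tested) had a median log2 fold change of -0.10 as deposited and 0.03 with centring. None of 19 fatty acid synthesis genes and none of 29 glycolysis and hypoxia genes was called. Of 74 oxidative phosphorylation subunits, Ndufs5 of complex I fell, with 0.159 and 8.79 FPKM in HMGN1-OE cells versus 103 and 27.2 FPKM in wild-type cells (limma adjusted p = 2.38e-14, and 0.646 with centring). Its HMGN1-OE libraries lay far apart, the first near the value of genes without signal. The log2 fold change was between -5.55 and -2.47 with a single library left out. The list's median was -0.12 (0.02 with centring), the same as that of all genes as deposited to 2 decimals.

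Of 41 NRF2 and glutathione genes, Gstm7 and Gstm5 rose and Mgst1 fell, where 0.799% of all genes were called higher and 0.564% lower. Gstm5 had 6.95 and 1.21 FPKM in HMGN1-OE cells versus 0.183 and 0.746 FPKM in wild-type cells (limma adjusted p = 0.000638, 0.646 with centring, and 0.855 without the first HMGN1-OE or 0.0892 without the first wild-type library). Mgst1, a microsomal transferase, had 4.32 and 3.92 FPKM against 8.31 and 40.8 FPKM (limma adjusted p = 0.0248, 0.9 with centring, 0.0866 with a replicate block on the column order, and between 0.336 and 0.901 without any library but the first wild-type). With centring, 17 of the 41 were separated downward (41.5%, against 17.9% of all genes), 6 upward (14.6%, against 19.8%), and the median was -0.10. As deposited 4 were separated downward (9.76%, against 4.67%) and 3 upward (7.32%, against 3.26%). Without the second wild-type library the centred median was 0.04, so the sign of the list rests on that library. Hspb8, a small heat shock protein, had 5.12 and 1.12 FPKM against 0.210 and 0.153 FPKM and was the 1 called gene of 20 heat shock genes (limma adjusted p = 6.8e-05, 0.712 with centring, and 0.855 without the first HMGN1-OE library). None was called of 42 amino acid and ATF4 target genes, 29 ER folding genes, 26 p53 target genes, 13 Bcl2 family genes, 43 lysosome genes and 12 heme synthesis genes. Amino acid and ATF4 target genes were mostly higher with centring, 38 of 42 above 0 (53.1% of all genes were) and 18 separated upward (42.9%, against 19.8%), with a median of 0.17. As deposited, 27 of 42 were above 0 (22.4% of all genes were), 1 was separated upward (2.38%, against 3.26%), and the median was 0.03. Without the first HMGN1-OE library the centred median was 0.05 and 28 of 42 were above 0. Nupr1, a stress-induced nuclear protein, had 199 and 90.8 FPKM against 54.5 and 62.9 FPKM. ER folding genes had 13 of 29 separated upward with centring (44.8%) and 0 as deposited, with medians of 0.08 and -0.05. Of the 12 heme synthesis genes, 10 were below 0 with centring and all 12 as deposited, with medians of -0.10 and -0.23. With centring 4 of them were separated downward (33.3%, against 17.9% of all genes).

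Cdkn2c, the CDK4 and CDK6 inhibitor p18, had 141 and 163 FPKM in HMGN1-OE cells versus 86.4 and 14.97 FPKM in wild-type cells (log2 difference 2.03 ± 0.53 SE, limma adjusted p = 0.0118), and was the 1 called gene of 17 G1 cyclins and CDK inhibitors. The limma adjusted p was 0.901 without the second wild-type library, 0.159 and 0.231 without the first and second HMGN1-OE library, and 0.999 with centring. None of 51 DNA replication genes, 58 mitosis genes or 58 replication-dependent histone genes was called. DNA replication genes had 13 of 51 members above 0 as deposited and 35 with centring, with medians of -0.07 and 0.06. Histone genes had 43 of 58 above 0 as deposited and 49 with centring, with medians of 0.14 and 0.28, and 26 were separated upward and none downward with centring (44.8% upward, against 19.8% of all genes). As deposited 8 of them were separated upward (13.8%, against 3.26%) and 3 downward (5.17%, against 4.67%). Their centred median was between 0.17 and 0.36 with 1 library left out, but as deposited it was -0.03 without the first HMGN1-OE and -0.21 without the first wild-type library. The mRNAs of these histones normally end without a poly(A) tail, and the libraries were made from polyA RNA.

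Ribosomal protein genes had a centred median of 0.06 over 76 genes, with 17 below 0, and the single-library comparisons gave medians between 0.05 and 0.06. With centring 31 were separated upward (40.8%, against 19.8% of all genes), 4 downward (5.26%, against 17.9%) and none called. As deposited, 7 of the 76 were above 0 (22.4% of all genes were), and none was separated upward and 1 downward (1.32%, against 4.67%). The 1 called gene of the list was Rpl26, with 5.15 and 20.6 FPKM in HMGN1-OE cells versus 224 and 18.2 FPKM in wild-type cells, so that the genotypes overlapped. The call was lost without the first wild-type library (limma adjusted p = 0.583, and 0.966 with centring) or the first HMGN1-OE library (0.642). Of 56 ribosome biogenesis genes and 38 proteasome subunits, none was called, with medians of -0.11 and -0.08 as deposited and 0.02 and 0.06 with centring.

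Mouse Hmgn1 itself was not called, with 201 and 97.6 FPKM in HMGN1-OE cells versus 85.7 and 141 FPKM in wild-type cells (log2 difference 0.35, standard error 0.55). The transgene is human, and its reads were not analysed here, so this value does not check the genotype. None of 11 high mobility group genes was called. Hmgn3, a close relative of Hmgn1, had 56.6 and 20.5 FPKM against 15.3 and 7.55 FPKM, with separated libraries (log2 difference 1.58 ± 0.49 SE, limma adjusted p = 0.0881). Polycomb genes (29 tested), Trithorax and acetylation genes (29 tested) and genes around mouse Hmgn1 (17 tested) had no called member and medians between -0.09 and -0.05 as deposited. The centred medians of the Polycomb genes and of those around Hmgn1 were 0.04 and 0.07. On that scale 10 of the 29 Polycomb genes were separated upward (34.5%, against 19.8% of all genes) and 5 downward (17.2%, against 17.9%). With centring, 15 of the 29 Trithorax and acetylation genes were separated upward (51.7%, against 19.8%), with a median of 0.08, whereas as deposited 1 was (3.45%, against 3.26%) and 7 were above 0. Erg, an ETS factor near Hmgn1, had 99.3 and 57.3 FPKM against 51.0 and 62.6 FPKM.

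Of 7 tested genes on the germ cell list, 3 were called lower and 1 higher, where 0.564% and 0.799% of all genes were. The 3 falls were Xlr4a, Xlr4b and Xlr4c, close copies on the X chromosome, so their values are not independent. They are on the list by the choice of its members, and a germ cell program was not tested. They were between 0.108 and 0.202 FPKM in HMGN1-OE, near the value without signal. In wild-type libraries they had 39.9 and 2.19, 35.2 and 3.14, and 26.6 and 5.15 FPKM (log2 fold changes -3.36, -3.39 and -3.50, limma adjusted p = 7.86e-16, 1.07e-15 and 1.23e-16). Without the first wild-type library, the limma adjusted p was 0.247 for Xlr4a, 0.054 for Xlr4b and 0.000312 for Xlr4c. With centring it was 0.908, 0.854 and 0.6. Dazl, an RNA-binding protein of germ cells, had 7.19 and 0.716 FPKM in HMGN1-OE cells versus 0.626 and 0.152 FPKM in wild-type cells (limma adjusted p = 0.0022, 0.957 with centring, and 0.855 without the first HMGN1-OE or 0.513 without the second wild-type library). None of the 6 tested genes on the imprinted list, which did not hold the Xlr4 genes, and of 13 long noncoding RNA genes was called. Xist had 215 and 160 FPKM in HMGN1-OE cells versus 142 and 255 FPKM in wild-type cells, and the 4 Y-linked genes on the list were near 0.1 FPKM in all 4 libraries.

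**Figure D4:**
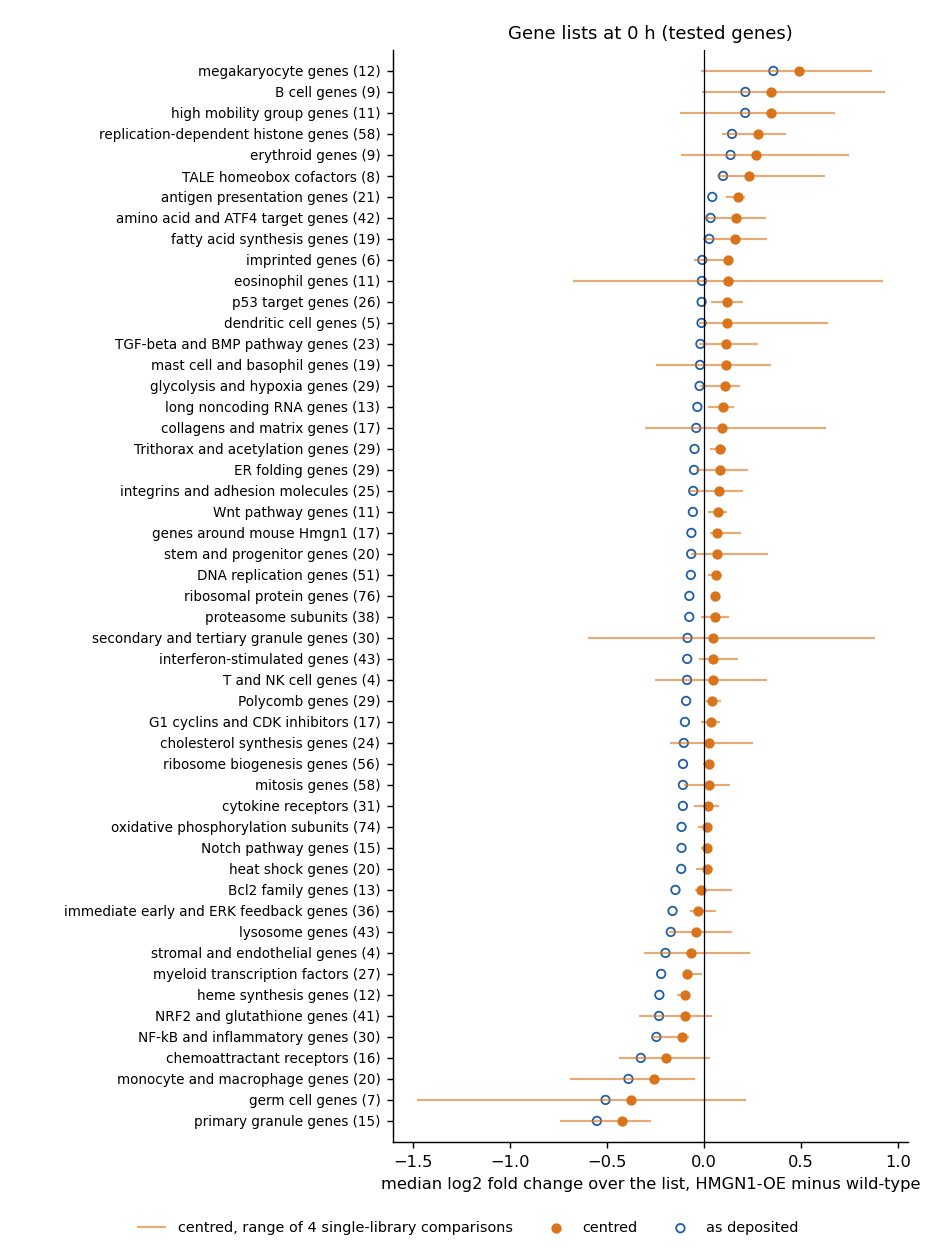
Median log2 fold change (HMGN1-OE minus wild-type, 0 h) of the 51 gene lists with at least 4 tested genes, with the number tested in brackets. Open blue circles are values as deposited, filled orange circles values with each library centred on its median, and orange lines the range of the 4 comparisons of single centred libraries. With all 4 libraries, primary granule genes lie lowest on both scales, and the lines of most other lists with medians below 0 as deposited reach or pass 0 with centring.

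The 118 genes called at 0 h, small RNA genes aside, were then read in the libraries of 36 and 96 h. Their genotype difference at those times was not used to call them, but those libraries entered the filter and the shared estimate of the spread, and they may come from the same cultures. From the 0 h libraries alone, 67 of the 118 were called. At 36 h, 61 of the 73 genes higher at 0 h were above 0, where 3.92% of all genes other than small RNA genes were, and their median log2 fold change was 0.89 against -0.54 for all genes. All 45 lower genes were below 0 at 36 h, where 96.1% of all genes were, with a median of -1.82. In all, 52 of the 118 genes (44.1%) were called in the same direction at 36 h, none in the opposite direction, and 0.954% of all genes other than small RNA genes were called at that time (1.26% with them). At 96 h, 12 of the 118 (10.2%) were called in the same direction and 2 in the opposite direction, where 0.376% of all such genes were called (0.669% with small RNA genes). Of the 73 higher genes, 59 were above 0 at 96 h, where 88.9% of all genes other than small RNA genes were, with a median of 0.17 against 0.36 for all genes. Of the 45 lower genes, 28 were below 0, where 11.1% of all genes were, with a median of -0.15.

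The 11 genes called in the same direction at all 3 times were BC064078, C1qtnf6, Gm9846, Il11ra1, Lpcat2, Nt5e, Oas1a, Vill and the 3 Xlr4 genes. The genotypes overlapped at 0 h in Gm9846 and Lpcat2, and Vill had 10.1 FPKM in the first and 0.257 FPKM in the second wild-type library against 0.208 and 0.138 FPKM. C1qtnf6 differed by 3.84 at 36 h and 2.48 at 96 h on the log2 scale, and BC064078 by -6.35 and -2.73. The 2 genes called in the opposite direction at 96 h were Elane and Mpo, with log2 fold changes of 2.50 and 2.39 at that time. Elane then had 168 and 554 FPKM in HMGN1-OE cells versus 129 and 21.7 FPKM in wild-type cells. Mpo had 114 and 406 FPKM against 116 and 13.5 FPKM, so that the genotypes overlapped. The second wild-type library at 96 h, the lower in both genes, also had the lowest library median of the 12, at 2.02. The difference between the times was itself past the threshold for both, as it was for 0.677% of all genes (limma adjusted p = 3.77e-07 for Elane and 1.65e-05 for Mpo). Ly6c2 and Ly6c1 were lower at 36 h too and had values of 1.06 and 1.04 at 96 h.

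**Figure D5:**
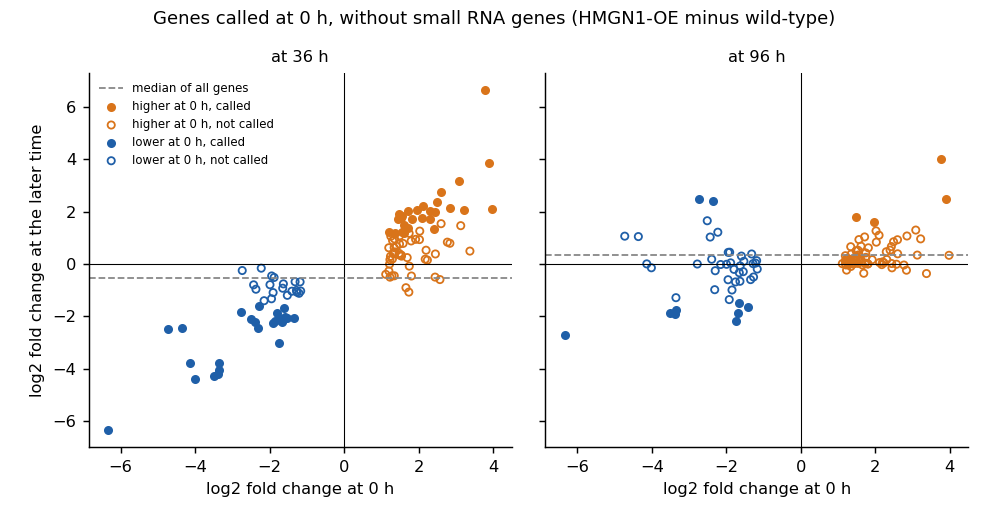
Log2 fold change (HMGN1-OE minus wild-type) at 36 h (left) and 96 h (right) against that at 0 h for the 118 genes called at 0 h other than small RNA genes. Orange points were higher and blue points lower at 0 h, filled points were called at the later time, and the dashed line is the median of all genes other than small RNA genes at that time. At 36 h most points keep the sign of 0 h, and at 96 h most lie near 0.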

How the data were processed

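RNA was measured in 12 libraries of wild-type and HMGN1-OE cultures, 2 for each genotype and time (0, 36 and 96 h without E2). The authors deposited FPKM values from TruSeq libraries of polyA RNA, which do not keep strand, normalized by loess to 92 ERCC spike-in RNAs. The study's methods name Bowtie and RPKM, and the submitters' processing notes name HISAT, Cufflinks 2.0.0 and mm9. Depth is unknown, so no counting interval is given.

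FPKM as deposited was transformed to log2(FPKM + 1) and filtered at 1 FPKM in at least 2 libraries. limma 3.58.1 (R 4.3.3) with a trended prior was fitted to 6 group means over the 12 libraries, two-sided, with Benjamini-Hochberg adjustment over 11516 genes, both as deposited and after centring every library on its own median. All groups shared 1 estimate of the spread. The prior had infinite degrees of freedom as deposited and 2.87 with centring. On simulated data for this comparison (11516 genes), 71.5% of 200 genes shifted by 2 on the log2 scale were recovered with 4.03% false calls. The values were 64% and 6.57% when the noise of each gene was drawn at random around that of its expression level. The simulation added no library-wide shifts, so its rates of false calls do not cover the shifts in these libraries. Alternatives were another pseudocount, filters, quantile normalization, other limma settings and leaving out each library.

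Named genes were Hmgn1, the 15 largest rises and 15 largest falls among called, separated genes outside the Hox genes and the study's gene sets, all genes called on both scales, the called members of 53 gene lists or otherwise up to 4 separated members, and the cell type markers. Ctsc, Fcnb, Gm13305, Vpreb2, Igll1, Ms4a1, Hoxb8, Esr1, the host genes of the miRNAs and the genes called at all 3 times were named after their values were seen. The genes compared and the lists were chosen with earlier results of these data known. The study calls the 2 libraries of a group biological duplicates. Whether they came from separate mice or transductions is not given in the sources used here. As deposited, the p-values rest on the spread of genes at a like expression level, not on that between the libraries of the gene itself. With centring they use both. Columns were tied to a genotype and a time, not to a single labelled sample. Some results that met these rules are not reported here.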

Additional observations from a re-analysis of the deposited data

Results flagged for a closer look

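For the genes given here, the genotype difference at 36 or 96 h differed from that at 0 h by the limma test of the change itself (adjusted p under 0.05 over all genes). That test was passed by 58 genes for 36 h (0.504% of those tested) and by 78 for 96 h (0.677%). Values are the log2 difference at the later time minus that at 0 h, as deposited. The median difference of all genes other than small RNA genes was itself -0.54 at 36 h and 0.36 at 96 h, and no cause was tested.

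At 36 h the change was -1.88 for Gstm7, -2.89 for S100g, -3.17 for Dntt, -2.35 for Epx, -3.50 for Prg2, -1.74 for Hba-a1 and -2.82 for Itga8. At 96 h it was -3.65 for Gstm7, -3.75 for S100g, -2.26 for Mira, -2.79 for Crip1, -2.82 for Slc35d3, -2.59 for Dntt, -3.66 for Epx, -3.60 for Prg2, -2.12 for Vpreb1 and -2.60 for Il1r1. All of these genes had values above 0 at 0 h. Many genes given here were named for their differences at 0 h, which also enter the change, so its direction is partly set by that choice. The genes below 0 at 0 h had changes at 96 h of 3.61 for BC064078, 5.79 for Ly6c2, 5.40 for Ly6c1, 4.13 for Gpx8, 3.86 for Ndufs5, 4.76 for Mpo, 5.23 for Elane and 4.16 for Rpl26.

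Among small RNA genes, the change at 36 h was -5.79 for Mir704, -6.58 for Mir378b, -6.36 for Rnu11, 4.05 for Mir1892, 10.03 for Mir677, 8.24 for Mir26b, 4.45 for Mir130b and 3.30 for Mir22. At 96 h it was -6.16 for Mir704, -6.56 for Mir378b, -7.46 for Mir686, 15.57 for Mir1892, 6.35 for Mir677, 7.91 for Mir26b, 4.02 for Mir130b and 6.90 for Mir29c. For Mir704, Mir677 and Rnu11 at 36 h, and Mir1892, Mir26b and Mir29c at 96 h, the libraries of a genotype lay far apart. The lower was near the value of genes without signal, so these changes rest on single libraries. The 0 h values of Mir26b, Mir130b, Mir29c and Mir22 rest on the first wild-type library.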

How the results depend on the processing

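The 92 genes higher and 65 lower at 0 h became 6 and 0 without the filter on low values, 5 and 7 with centred libraries, 10 and 8 with quantile normalization, 17 and 13 without the trend, 49 and 22 with limma's robust option, and 3 and 0 in a linear model without moderation. The higher genes were 40 with a mean of at least 5 FPKM and 55 from the 0 h libraries alone. Where a count was 0, limma as reported had 457 genes at an unadjusted p under 0.05. With 1 library left out, the higher genes numbered 40 (without the first HMGN1-OE library) to 102, and the lower genes 28 (without the second wild-type library) to 188 (without the first). With centring, the 5 higher genes became 213 without the filter, 3 without the trend and 1 (without the first HMGN1-OE library) or 2 (without the second wild-type library) to 5 with 1 library left out. The 7 lower genes became 119, 3 and 1 to 4, and 4 from the 0 h libraries alone. Each left-out library lowered the latter count by over 1.5 times.

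Genes called in the same direction at 0 and 36 h, small RNA genes included, numbered 64. They were 2 without the filter, 32 with a mean of at least 5 FPKM, 4 with centring, 5 with quantile normalization, 11 without the trend, 25 with the robust option, 0 without moderation and 41 (without the first HMGN1-OE library) to 65 with 1 library left out. For 96 h the number was 26, and it was 0, 15, 1, 5, 2, 5 and 0 under these settings in turn, 11 without small RNA genes (chosen after seeing the data) and 10 (without the first wild-type library) or 15 (without the second) to 20 with 1 library left out. The causes were not tested. No gene named reversed direction under these settings while called. The calls of 10 genes were shared between the deposited and centred scales. The labels do not tie the column order within a group to their replicate numbers. With that order as a replicate block, chosen after seeing the data, 85 higher and 54 lower genes were called (3 and 2 with centring), and of the named genes called as deposited only Mgst1 lost its call (limma adjusted p = 0.0866). Differences of the first and second column correlated over genes between the genotypes at -0.0783, 0.00044 and -0.186 at 0, 36 and 96 h, so the order was not taken to pair libraries. Depth is unknown, so genes near 0.1 FPKM cannot be told from genes without signal.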
